A study of Mus musculus with 21 samples.

Results

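The genes described are the ribosomal protein genes of the mouse, taken as the protein-coding genes of the mm9 GENCODE vM1 annotation whose symbol is Rpl or Rps followed by a digit, without the Rps6k kinases. The rule found 134 of 22380 protein-coding genes and left out 10 Rps6k genes. Of the 134 genes, 72 are the core genes for ribosomal proteins, 42 of the large subunit and 30 of the small subunit. Another 8 are paralogs (Rpl3l, Rpl7l1, Rpl10l, Rpl22l1, Rpl36al, Rpl39l, Rps4y2 and Rps27l), 53 are single-exon copies with a "-ps" symbol that the annotation lists as protein coding, and 1 is Rps19bp1, which binds a ribosomal protein. No measured value was used to choose them.

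Ribosomal proteins and ribosomal RNA form the large and the small subunit of the ribosome, and cells make the proteins in matched amounts from many unlinked genes whose mRNAs start with a pyrimidine tract that lets mTOR signalling set their translation. These genes are short, with short introns, and many of the introns hold small nucleolar RNAs (snoRNAs), which are cut out of the intron and guide the modification of ribosomal RNA. Several ribosomal proteins limit their own production by steering the splicing of their own transcript toward an unproductive form. RBM10, encoded on the X chromosome, binds RNA and takes part in the choice of splice sites. iCLIP uses UV light to bond a protein to the RNA it touches in living cells, and after precipitation of the protein the end of each sequenced fragment gives the base that was linked.

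The iCLIP cells were mandibular (md) MEPA cells, a mouse line of the embryonic pharyngeal arch taken at 11.5 days post coitum from CD1 females mated with an Immortomouse male, grown at 33 °C with 100 U/ml interferon and irradiated with 400 mJ/cm2. There were 4 libraries with an antibody to both RBM10 isoforms and 4 with rabbit IgG, 1 for each RBM10 replicate. Each antibody had a lane of its own on the sequencer, and the effects of lane and antibody cannot be told apart. Polyadenylated RNA was sequenced from 4 CRISPR/Cas9 knockout (KO) lines of Rbm10 in md cells, each a single line, and from 3 wild-type (WT) md samples. The deletion lies in exon 3 for KO1 and KO2, and in exon 9 for KO3 and KO4. It also covered 3 samples of CSI176, a single hemizygous male gene trap embryonic stem (ES) line without the intact gene, and 3 of its parental line E14Tg2a.4, grown with LIF. The md KO lines and the WT md samples were, like the iCLIP cells, grown at 33 °C with 100 U/ml interferon. Whether the WT md samples, or the 3 samples of each ES line, were grown as separate cultures is not stated. The p-values then reflect only how far these samples spread, which may be a technical spread.

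The RBM10 libraries held 774816 to 2847066 crosslinks and the IgG libraries 103017 to 2214515. IgG 3 and IgG 4 are the shallow ones, with 103017 and 157986. RNA-seq values were TPM (transcript abundance, corrected for length and scaled to the same total in each library), so the depth behind them is unknown. Rbm10 itself stood at 3.63 to 4.27 TPM in gene trap ES cells against 32.2 to 33.5 TPM in WT, at 23.2 and 19.7 TPM in the exon 3 lines, at 7.20 and 3.49 TPM in the exon 9 lines, and at 21.4 to 23.7 TPM in WT md cells. A small deletion in exon 3 need not lower TPM, so this value does not check KO1 and KO2. Of 11 arch mesenchyme markers, Hand2 was listed at 0 in every md library, Dlx5 at no more than 0.231 TPM and Pdgfra at no more than 1.12 TPM. The 11 summed to 1442 to 1731 TPM in WT md cells and 937 to 2472 TPM in the md lines. Col1a2 (876 to 1056 TPM) and Col1a1 (375 to 473 TPM), which also mark fibroblasts, made up most of the WT sum. Prrx1 and Prrx2 stood at 47.3 to 49.8 and 54.5 to 60.5 TPM in WT md cells. The 8 stem cell markers summed to 4250 to 5300 TPM in ES cells. In bulk RNA, fewer cells of a type and less RNA per cell cannot be told apart.

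The first comparison asks where RBM10 touches transcripts of ribosomal protein genes. Their introns held more crosslinks in RBM10 than in IgG libraries, and none of them held fewer by the test. Core introns held 0.463, 0.427, 0.748 and 0.621% of the crosslinks of RBM10 libraries 1 to 4, and 0.192, 0.179, 0.204 and 0.172% in IgG libraries 1 to 4. The groups do not overlap, and RBM10 3 and 4 are the highest (mean 0.565 ± 0.148% against 0.187 ± 0.0140%, SD, n = 4 each). Introns here are the gene span outside exons of protein-coding transcripts and outside small RNA genes.

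With all genes in the fit of edgeR's quasi-likelihood test, intronic crosslinks passed in 52 of 73 tested members, all higher in RBM10, where 39.5% of the 8064 genes tested were called higher. None of the 73 was called lower, against 12.4% of all genes, and at an unadjusted p under 0.05 there were 55. Of the 71 core genes tested, 50 were called higher and 68 had a log2 fold change above 0. The median log2 fold change was 1.34 over the core genes and 0.48 over all genes. Without TMM factors these medians were 1.46 and 0.59, a shift of all genes by over 0.1 that leaves the distance between them at 0.87. In CPM, crosslinks scaled to the same library total, RBM10 and IgG values did not overlap, with RBM10 higher, in 48 of 73 members, where 43.4% of all genes were so, and in 0 members with RBM10 lower (5.98% of all genes). The filter on low counts can be passed through the group where a gene is high, so these counts cover the 73 members that passed it, and the copies, which have no intron, were not tested here.

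**Figure D1:**
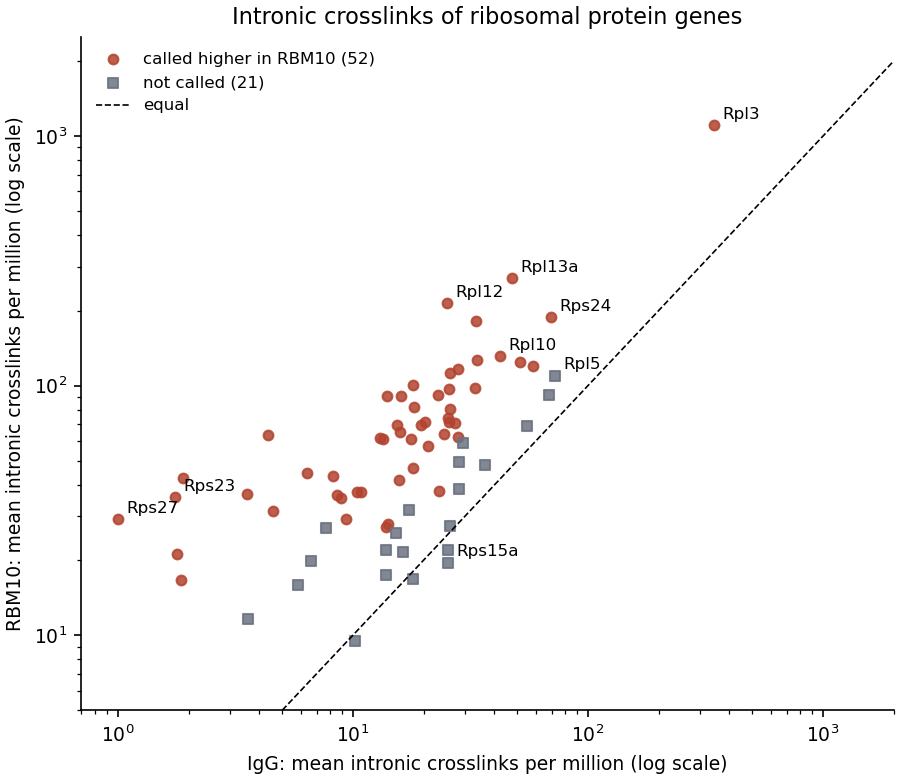
Mean intronic crosslinks (CPM) in the 4 RBM10 libraries (vertical, log scale) against the 4 IgG libraries (horizontal, log scale) for the 73 tested ribosomal protein genes. The 52 called genes are circles and lie above the dashed line of equal values, Rpl3 stands apart at the top right, and Rpl36, Rps14, Rps15a and Rps16 lie under the line.

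Large and small subunit genes both took part. Of 42 tested large subunit genes 28 were called higher (median log2 fold change 1.14), and of 29 small subunit genes 22 (median 1.57). The largest folds were those of 3 small proteins of the 40S subunit. Rps27 (ENSMUSG00000090733.1, mm9 3:90016593-90017573, minus strand), a zinc finger protein at the subunit surface, had 30, 59, 141 and 15 intronic crosslinks in RBM10 libraries and 2, 3, 0 and 0 in IgG libraries. Its log2 fold change was 3.99 (SE 0.60, edgeR adjusted p = 1.0e-05). Every RBM10 library was above every IgG library in CPM, and the shallow IgG libraries had none. Rps21 had 28, 68, 150 and 53 against 6, 3, 0 and 0 (3.60, edgeR adjusted p = 2.8e-05), and Rps23, a protein of the decoding centre, had 32, 67, 138 and 33 against 5, 4, 0 and 0 (3.40, edgeR adjusted p = 1.5e-05). Fitted folds of genes with such low control counts depend on the prior count that edgeR adds.

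The most crosslinked member was Rpl3 (ENSMUSG00000060036.7, 15:79908211-79913836, minus strand), a protein near the peptidyl transferase centre with a known unproductive splice form. It had 1100, 2401, 4205 and 872 intronic crosslinks in RBM10 libraries and 333, 775, 40 and 47 in IgG libraries (log2 fold change 1.41, SE 0.19, edgeR adjusted p = 3.7e-06). Rpl3 hosts 2 snoRNA genes, and with small RNA genes counted as intron it was not called (adjusted p = 0.11). Rpl3 alone gave 19.7 ± 1.31% of the core intronic crosslinks in RBM10 and 18.5 ± 1.02% in IgG libraries (SD, n = 4 each), so its share was nearly alike with both antibodies. Without Rpl3 the core introns still held 0.454 ± 0.122% of RBM10 and 0.152 ± 0.0108% of IgG crosslinks.

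The introns of Rpl3 differed among themselves. Intron 6 of 9, 881 nt long, had 491, 837, 1586 and 359 crosslinks in RBM10 libraries and 33, 37, 3 and 2 in IgG libraries. Intron 1, 741 nt long, had 231, 696, 686 and 177 against 209, 565, 29 and 40. Intron 6 was thus high in RBM10 libraries, and intron 1 was similar in both kinds of library once depth is considered. Introns 2 and 4 had 875 and 997 RBM10 crosslinks in all and 85 and 22 in IgG. In intron 6, 89.4% of the RBM10 crosslinks lay in the last 100 nt. A single cytosine there, 59 nt before exon 7, took 221, 327, 549 and 131 RBM10 crosslinks and 13, 1, 1 and 0 IgG crosslinks. A position of intron 1, 322 nt before exon 2, had 29, 91, 5 and 9 RBM10 crosslinks and 38, 82, 5 and 5 IgG crosslinks, with no excess in RBM10. Single introns and positions were not tested.

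**Figure D2:**
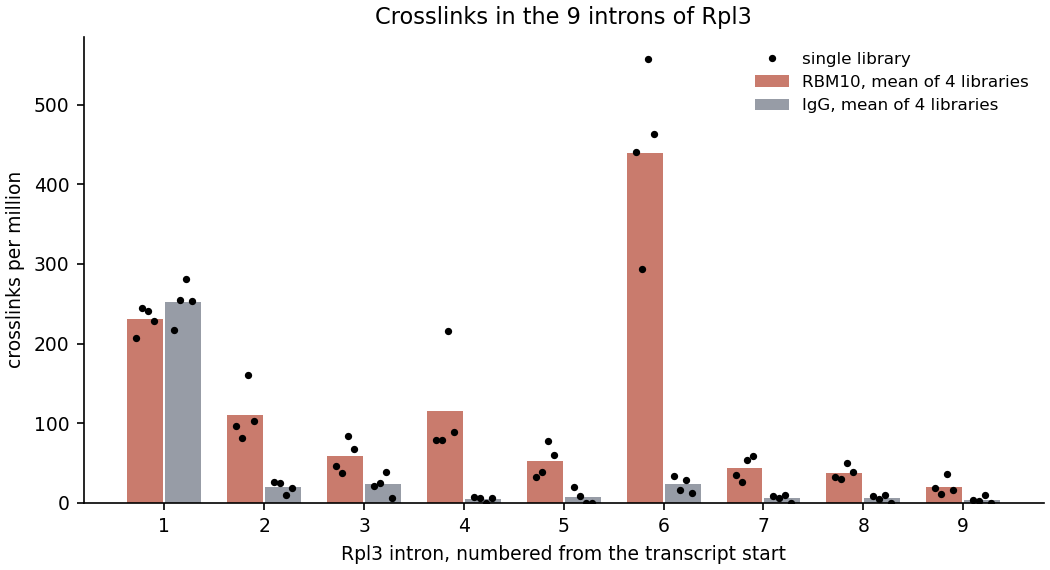
Crosslinks (CPM) in the 9 introns of Rpl3, numbered from the transcript start. Bars are means of 4 libraries from 0 and points are single libraries: intron 6 is high with RBM10 and low with IgG, and intron 1 is alike with both.

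The introns with most RBM10 crosslinks near the next exon in 4 genes show what the crosslinked sequence looks like. The sequences are read from mm9 on the gene's strand, 5′ to 3′, and capitals mark positions crosslinked in all 4 RBM10 libraries. Rpl3 intron 6 (last 100 nt, 15:79909239-79909338, minus strand) and Rps18 intron 1 (last 100 nt, 17:34092122-34092221, minus strand) end at the intron's last base. Rpl12 intron 5 (2:32819104-32819260, plus strand) and Rps6 intron 3 (4:86501918-86502049, minus strand) are under 200 nt and shown whole.
Rpl3 intron 6: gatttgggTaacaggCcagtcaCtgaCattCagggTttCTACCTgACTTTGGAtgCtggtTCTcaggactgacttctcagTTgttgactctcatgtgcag
Rpl12 intron 5: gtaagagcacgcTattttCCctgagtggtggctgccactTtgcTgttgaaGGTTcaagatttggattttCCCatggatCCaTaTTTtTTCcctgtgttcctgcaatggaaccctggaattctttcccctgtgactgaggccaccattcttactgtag
Rps18 intron 1: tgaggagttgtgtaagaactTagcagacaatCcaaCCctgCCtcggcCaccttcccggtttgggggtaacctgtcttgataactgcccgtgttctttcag
Rps6 intron 3: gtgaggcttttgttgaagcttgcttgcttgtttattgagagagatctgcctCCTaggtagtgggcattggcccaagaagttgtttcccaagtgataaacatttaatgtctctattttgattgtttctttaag

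In these windows most capitals lie well before the terminal ag, and runs of C or T carry many of them. The Rpl3 window has 26 capitals, of which 10 are C, and they hold 89.6% of its RBM10 crosslinks. Rpl12 intron 5 has 21 (8 of them C) with 69.6% of its RBM10 crosslinks, and Rps18 intron 1 has 7 (6 of them C) with 57.0%. Rps6 intron 3 has only 3, side by side, with 89.0%.

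Short introns with strong contacts were found beyond Rpl3. Rpl12 (ENSMUSG00000038900.11, 2:32817079-32820016, plus strand), a stalk-base protein with a known unproductive splice form, hosts Snora65 and overlaps Lrsam1 on the other strand. Its introns had 177, 468, 858 and 180 RBM10 crosslinks and 29, 36, 1 and 7 IgG crosslinks (log2 fold change 2.92, SE 0.30, edgeR adjusted p = 1.3e-07, the lowest of all members). The groups do not overlap, and intron 5, 157 nt long, gave 66.3% of the RBM10 crosslinks (113, 318, 579 and 105, against 9, 9, 0 and 0 in IgG). Rps6 (4:86500564-86503316, minus strand), the protein that S6 kinases phosphorylate, had 70, 170, 311 and 41 against 9, 24, 3 and 5 (2.17, edgeR adjusted p = 4.9e-05). Its intron 3, 132 nt long, had 46, 134, 224 and 24 RBM10 crosslinks, and 0 of the IgG crosslinks of any library fell in it. Of those 428 crosslinks, 232 were at 1 position 79 nt before exon 4. With exons of all annotated transcripts taken out of the introns, Rps6 turned to -0.25 and Rps18 to -0.31, neither of them called. In 33 of the 72 core genes 1 intron held at least 50 percent of the gene's RBM10 intronic crosslinks.

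Rpl13a and Rps2 host snoRNAs and were high in their introns outside the snoRNAs. Rpl13a, which hosts 4 snoRNAs and overlaps Flt3l on the same strand, had 243, 574, 950 and 250 against 71, 140, 1 and 7 (1.89, edgeR adjusted p = 3.6e-06). Rps2, a protein at the mRNA entry side of the small subunit, had 42, 151, 260 and 56 against 12, 11, 0 and 0 (2.92, edgeR adjusted p = 1.1e-05). In both the groups do not overlap. With small RNA genes counted as intron the log2 fold changes turned to -0.57 and -0.055. Rpl10, a late-joining protein that completes the large subunit, had 111, 264, 525 and 114 against 23, 60, 7 and 8 (1.77, edgeR adjusted p = 4.3e-05).

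Rpl11 and Rpl5 belong to the 5S particle, which binds MDM2 when ribosome assembly fails. Rpl11 had 46, 166, 203 and 66 RBM10 crosslinks and 27, 56, 2 and 4 IgG crosslinks (log2 fold change 1.02, edgeR adjusted p = 0.0077). Rpl5 had 103, 271, 381 and 91 against 62, 164, 7 and 13 (0.34, SE 0.22, edgeR adjusted p = 0.20). Rpl11 passed, but not with exons of all annotated transcripts taken out of the introns (adjusted p = 0.30), and Rpl5 did not pass. In CPM the groups do not overlap in Rpl5 either. A difference between the 2 genes was not tested.

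Several core genes that are mutated in Diamond-Blackfan anaemia, a failure of red cell production, were called higher. Rps10 had a log2 fold change of 1.79 (edgeR adjusted p = 4.3e-05), Rps26 of 1.38 (0.017), Rps24 of 1.27 (4.8e-04) and Rps19 of 0.83 (0.018). Rps24 had 156, 355, 777 and 168 RBM10 crosslinks and 63, 134, 13 and 4 IgG crosslinks, and its groups overlap at IgG 3, the shallowest library. Rpl35a had 36, 110, 130 and 29 against 17, 35, 5 and 5 and did not pass (0.67, edgeR adjusted p = 0.10). The Rps19 call was lost with each RBM10 library paired with its own IgG library (adjusted p = 0.058) and without IgG 1 (highest adjusted p of its alternatives 0.083). That of Rps26 was lost without IgG 1, without IgG 2 and with DESeq2, with adjusted p up to 0.29.

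Among other members with a known regulated splice form, Rpl30 (log2 fold change 1.34, edgeR adjusted p = 0.0014), Rpl10a (0.91, 0.0033) and Rps3 (0.99, 0.019) were called higher. Rps3 was not called without IgG 2 or in pairs 1 and 2 alone, and with small RNA genes counted as intron Rpl30 turned to -0.24 and Rps3 to -1.06. Rps13, whose introns had 30, 52, 79 and 10 RBM10 crosslinks and 22, 31, 1 and 3 IgG crosslinks, had a log2 fold change of 0.05 (edgeR adjusted p = 0.91). Its groups overlap. Rps27a, which encodes a fusion of ubiquitin with a small subunit protein, was called higher (1.82, edgeR adjusted p = 1.7e-04). On the other strand Rps27a overlaps 1700034F02Rik, Rps10 Gm15420, Rps18 Vps52, Rpl5 Fam69a, Rps2 Snhg9, Rpl35a Gm17106, Rpl7l1 Gm16736 and Rpl23a Tlcd1.

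Of the paralogs, 2 had enough intronic crosslinks to be tested, and both were called higher. Rpl22l1, the paralog that takes the place of Rpl22, had 36, 74, 158 and 25 RBM10 crosslinks and 7, 17, 2 and 0 IgG crosslinks (log2 fold change 1.98, edgeR adjusted p = 4.7e-04). Rpl22 had 61, 151, 235 and 67 against 34, 84, 6 and 14 (0.32, edgeR adjusted p = 0.39) and its groups overlap. Rpl7l1 had 82, 153, 297 and 74 against 11, 31, 1 and 6 (2.15, edgeR adjusted p = 3.0e-05). Rpl39, the X-linked partner of Rpl39l, did not pass (0.44, edgeR adjusted p = 0.36), and Rpl36a on the X chromosome did (2.16, edgeR adjusted p = 3.2e-04). Rps27l had too few intronic crosslinks to be tested (59 in RBM10 and 8 in IgG libraries).

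Of the core genes, 3 had a log2 fold change under 0. Rps15a had 19, 57, 69 and 13 RBM10 crosslinks and 20, 79, 2 and 4 IgG crosslinks (-0.77, edgeR adjusted p = 0.053), Rps16 had -0.29 and Rps14 -0.16. None of them passed.

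Within the introns, RBM10 crosslinks lay near the next exon. The 349 core introns have a median length of 343 nt, against 1293 nt for 194968 introns of other protein-coding genes, and 98 are no longer than 200 nt. Their last 100 nt, which make up 15.8% of core intron bases, held 46.4, 43.4, 51.2 and 48.8% of the RBM10 crosslinks and 20.3, 15.5, 17.2 and 21.9% of the IgG crosslinks (47.5 ± 3.34% against 18.7 ± 2.87%, SD, n = 4 each). The groups do not overlap. In other genes the last 100 nt are 2.07% of intron bases and held 25.4 ± 5.12% against 3.91 ± 0.737%. The first 100 nt of core introns held 26.0 ± 1.44% and 18.98 ± 3.26%. Regions within 100 nt of both ends overlap in the shortest introns.

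The excess in share was not at the splice site itself. In core introns, bases 1 to 20 and 21 to 40 before the exon held 1.88 ± 0.383% and 2.40 ± 0.277% of the RBM10 crosslinks, smaller shares than the 4.53 ± 0.575% and 4.10 ± 0.606% of the IgG crosslinks. The core introns as a whole held 0.565% of RBM10 and 0.187% of IgG crosslinks, so a smaller share there need not mean fewer crosslinks. Bases 41 to 60 held 17.0 ± 1.44% against 3.93 ± 1.04%, bases 61 to 80 held 16.1 ± 1.97% against 4.12 ± 1.51%, and bases 81 to 100 held 10.0 ± 0.710% against 2.04 ± 0.874% (SD, n = 4 each). In other genes bases 61 to 80 held the most RBM10 crosslinks (10.0 ± 2.25%), followed by bases 81 to 100 (6.77 ± 1.48%) and 41 to 60 (6.40 ± 1.41%). Of the 1756 core RBM10 crosslinks at 59 nt before the exon, 1228 came from the Rpl3 position. Pooled over libraries and without Rpl3, the last 100 nt held 45.9% of RBM10 and 18.8% of IgG crosslinks. In 69 of 72 core genes the last 100 nt held a larger share of RBM10 crosslinks than of bases, from 10.9% in Rpl22 to 81.4% in Rps6 with a median of 41.9%. The exceptions were Rpl7, Rps13 and Rpl36.

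**Figure D3:**
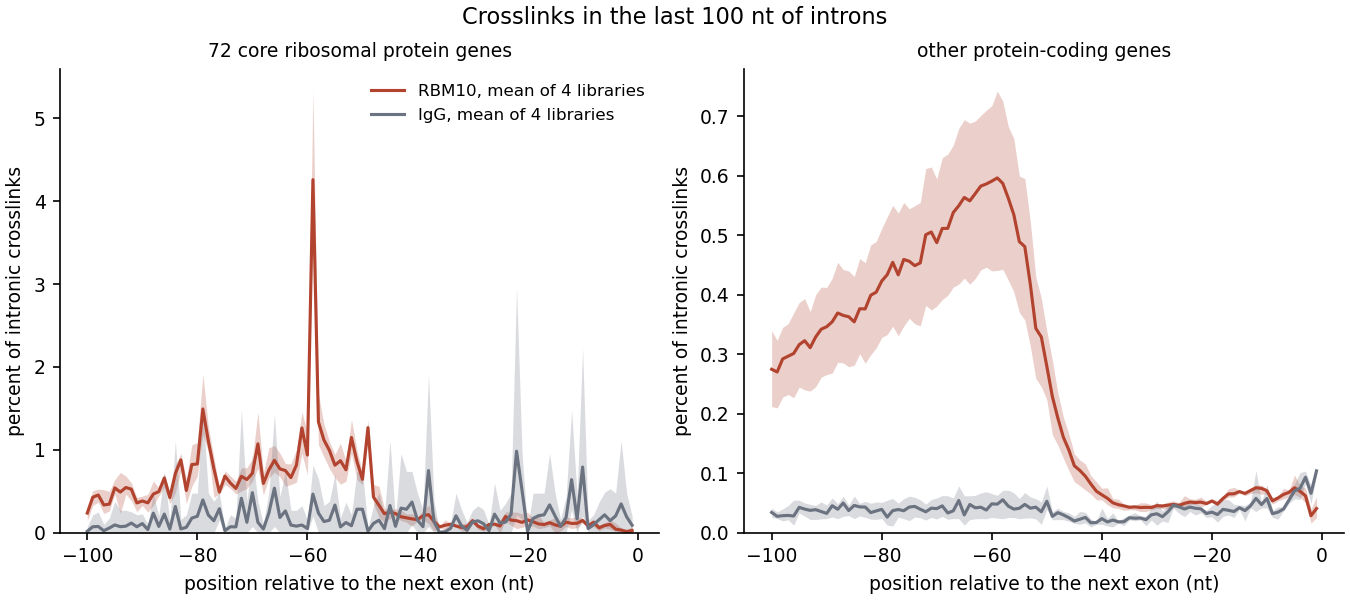
Percent of intronic crosslinks at each of the last 100 nt of introns, for the 72 core genes (left) and other protein-coding genes (right). The axes differ. Lines are means of 4 libraries and bands run from the lowest to the highest library. On the left the RBM10 mean lies above the IgG mean from 49 to 100 nt before the exon, and the peak at 59 nt is mostly Rpl3.

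Crosslinked bases differed as well. In core introns 44.1 ± 2.31% of RBM10 crosslinks were at C and 33.5 ± 2.57% at U, against 17.4 ± 2.72% and 50.4 ± 2.75% of IgG crosslinks (SD, n = 4 each), and the introns themselves are 21.1% C and 29.4% U. The RBM10 range for C, 40.8 to 46.2%, lies above that of IgG, 14.2 to 20.7%. Of 16732 positions with a RBM10 crosslink, 378 were crosslinked in all 4 RBM10 libraries, in 119 introns of 55 genes. They held 27.2% of the RBM10 and 9.34% of the IgG crosslinks. Rpl3 alone had 93 of these positions, spread over all 9 of its introns. Of the 378 positions, 61.4% lay in the last 100 nt, 60.3% were C, and 49.2% were a C beside another C. These positions were chosen by the RBM10 libraries, so their share of RBM10 crosslinks is a description. Whether copies of 1 molecule were collapsed is not given in the sources used here, and a position with many crosslinks can hold such copies.

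Counted over whole genes, members that host snoRNAs and members that host none had medians on different sides of 0. Crosslinks over the gene body passed edgeR's quasi-likelihood test in 38 of 76 tested members, 28 higher in RBM10 (19.5% of 9255 genes were called higher) and 10 lower (17.3%). In the 28 core genes that host 54 snoRNA genes, 3 were higher and 8 lower, with a median log2 fold change of -0.35. In the 43 tested core genes that host none, 23 were higher and 2 lower, with a median of 0.88. Over introns without small RNA genes the same groups had medians of 1.37 (21 of 28 called higher) and 1.27 (29 of 43). The difference between the groups was not tested. Without IgG 2, 23 members were called over the gene body in place of 38. Over all genes 1825 of 9005 were then called, in place of 3411 of 9255. The 10 lower calls numbered 3 without IgG 2, 3 without RBM10 4, 4 without IgG 1 and 16 without RBM10 2. They numbered 4 with each position counted once per library. In the same order from RBM10 4 on, calls in either direction over all genes numbered 2679 of 9744, 2257 of 9693, 4038 of 9166 and 4109 of 9086.

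The snoRNAs themselves were crosslinked in both kinds of library. Small RNA genes inside core genes held 3423, 11713, 2346 and 856 crosslinks in RBM10 libraries and 5232, 12308, 426 and 514 in IgG libraries, which is 0.228 ± 0.158% and 0.459 ± 0.110% of the libraries (SD, n = 4 each). RBM10 2 lies within the range of the IgG libraries, so the groups overlap. Rpl13a alone had 599, 2228, 433 and 144 against 921, 2028, 78 and 87. Rps3, which hosts Snord15a and Snord15b, had 332, 1011, 351 and 107 crosslinks over its gene body in RBM10 and 549, 1109, 33 and 42 in IgG libraries (log2 fold change -1.15, edgeR adjusted p = 0.020), while its introns without the snoRNAs were called higher. Rpl5, Rpl7a, Rpl23a, Rpl39, Rps12, Rps13 and Rps16, which also host snoRNAs, were called lower over the gene body too, with log2 fold changes from -1.12 to -0.60. Rpl8 (-1.19, edgeR adjusted p = 0.0040) and Rps15a (-0.81, edgeR adjusted p = 0.018) were the lower genes without a snoRNA. When small RNA genes were counted with the introns, 12 members were called lower and 36 higher.

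**Figure D4:**
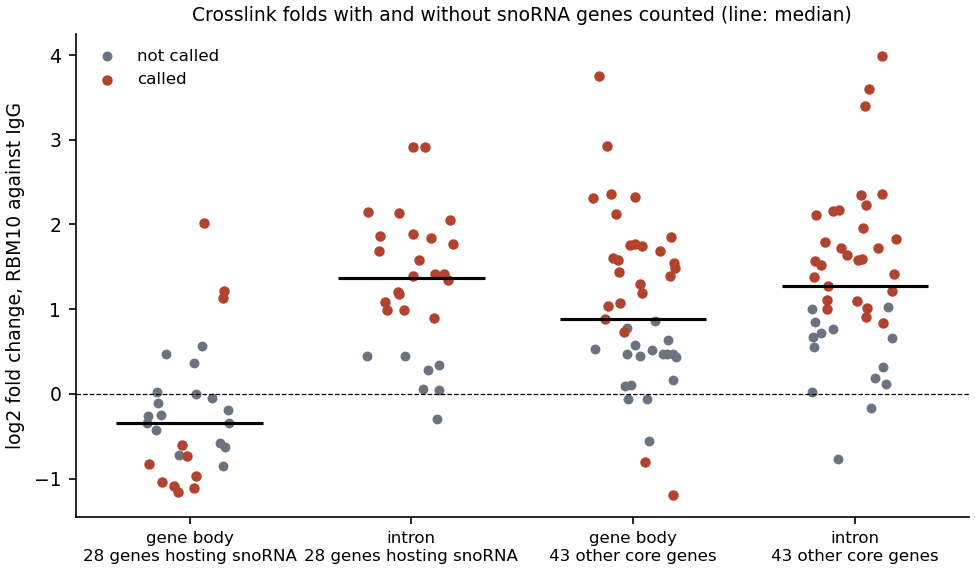
Log2 fold change of crosslinks, RBM10 against IgG, over gene bodies and over introns without small RNA genes, for 28 core genes that host snoRNAs and 43 other core genes. Red points passed the test and lines are medians: the snoRNA hosts are centred below 0 over the gene body (-0.35) and above 0 over introns (1.37).

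Exons of ribosomal protein genes held few crosslinks with either antibody. The core exons held 0.0741 ± 0.00393% of RBM10 and 0.0802 ± 0.0113% of IgG crosslinks (SD, n = 4 each), and the groups overlap. They made up 0.752 ± 0.229% of the RBM10 crosslinks and 0.455 ± 0.0265% of the IgG crosslinks in exons of protein-coding genes. In WT md cells the core genes made up 11.3 ± 0.169% of TPM (SD, n = 3). TPM is corrected for length and crosslink counts are not, so the size of a difference between these shares cannot be read from them. Only 19 members had enough exonic crosslinks to be tested, of which 3 were called higher by edgeR's quasi-likelihood test (1.09% of 4420 genes) and 6 lower (29% of all genes). The median was -0.85 over these members and -1.11 over all genes.

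The higher genes were Rpl9, Rpl28 and Rps9. Rpl9 had 56, 109, 270 and 77 exonic crosslinks in RBM10 and 7, 19, 1 and 1 in IgG libraries (log2 fold change 2.85, edgeR adjusted p = 0.013). Rpl28 had 45, 107, 207 and 37 against 8, 23, 0 and 0 (2.39, 0.021), and Rps9 had 90, 222, 444 and 116 against 35, 77, 3 and 5 (1.496, 0.029). In these 3 genes every RBM10 library was above every IgG library in CPM. Rps20, Rps3, Rpl8, Rpl24 and Rpl4 were among the lower genes, with log2 fold changes from -1.85 to -1.55 and edgeR adjusted p from 0.026 to 0.035. Rpl24 overlaps Pcnp on the other strand. These calls rest on single libraries: 2 members were called without RBM10 4, 2 without IgG 1, 0 without IgG 2, 0 without IgG 3 and 1 without IgG 4. Calls over all genes fell in the same refits, from 1332 to 336, 146, 6, 3 and 14. Without RBM10 1, 2 or 3, 8, 13 and 6 members were called. With exons of all annotated transcripts, which include retained introns, 22 members were called higher and 2 lower, and the core median turned from -0.69 to 1.30.

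Many ribosomal protein exons have copies elsewhere in the genome. Of the 31-mers of core exons 39.3% occur elsewhere in mm9, with a gene median of 55.4%, against 4.75% in core introns (median 1.33%) and 7.63% in exons of 1111 other protein-coding genes. The 10 core genes with under 20% of such 31-mers had 1874 exonic RBM10 crosslinks, a median of 171.5 a gene. The 43 genes with 20 to 80% had 3512, a median of 34, and the 19 genes with over 80% had 286, a median of 13. Intronic RBM10 crosslinks had medians of 444.5, 329 and 551 in the same classes. Across the 72 core genes, Spearman's rho of the copied share with exonic RBM10 crosslinks was -0.65, with intronic ones 0.05 and with WT md TPM -0.05, where genes are not independent replicates. How reads with several matches were placed is not given in the sources used here, and its part in these values was not tested.

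The second comparison asks whether loss of RBM10 changed the RNA of ribosomal protein genes in md cells, and no member passed. The 72 core genes made up 10.0, 10.1, 11.2 and 11.8% of TPM in lines KO1 to KO4 and 11.4, 11.1 and 11.3% in WT. The exon 3 lines were below WT, KO3 lay within the WT range and KO4 above it, so the groups overlap (10.8 ± 0.851%, n = 4, against 11.3 ± 0.169%, n = 3, SD). Limma on log2(TPM + 1) called 0 of 93 tested members higher (0% of 12090 genes) and 0 lower (0.0165%), with 8 members and 829 of all genes at an unadjusted p under 0.05. The median log2 fold change was -0.10 over the core genes, 59 of 72 of which were below 0, and 0.01 over all genes, of which 5786 of 12090 were below 0. Of the tested members, 13 were lower in every KO line than in every WT sample (4.38% of all genes were so) and 0 were higher (6.33%).

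Members with low p are given as values. Rpl17, which lines the exit of the peptide tunnel, was listed at 101.9, 126.1, 117.8 and 99.1 TPM in the md lines and 166.5, 155.9 and 151.5 TPM in WT. Its log2 fold change was -0.51 (SE 0.12, limma adjusted p = 0.60), and the groups do not overlap. Rpl35, also at the tunnel exit, had 454, 460, 486 and 486 against 588, 558 and 520 TPM (-0.23, limma adjusted p = 0.72). Rpl30-ps8 (-0.69, limma adjusted p = 0.64) and Rpl10-ps3 (-0.32, limma adjusted p = 0.67) are copies. Rpl22l1 split by deletion, with 610 and 461 TPM in the exon 3 lines, 266 and 280 TPM in the exon 9 lines and 509, 523 and 572 TPM in WT (-0.49, limma adjusted p = 0.78).

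Ribosomal protein genes with strong RBM10 contacts showed no called change in md cells. Rpl3 had 558, 579, 545 and 421 TPM in the md lines and 550.5, 540, 546 TPM in WT (-0.06 on the log2 scale, limma adjusted p = 0.94). Rpl12 had 93.9, 91.0, 89.4 and 102.3 TPM against 102, 119 and 112 TPM (-0.24, limma adjusted p = 0.73), with the ranges overlapping at their edge. Across 71 core genes Spearman's rho of the intronic crosslink fold with the KO log2 fold change was 0.07 in md and 0.02 in ES cells. These genes share their libraries, so rho is a description.

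In ES cells the core genes were lower in the gene trap line for the most part. Of the 72 tested, 4 were called lower (5.56%), a share near the 4.73% of all genes. The core genes made up 11.6, 10.8 and 11.7% of TPM in KO samples 1 to 3 and 14.6, 14.3 and 12.1% in WT samples 1 to 3 (11.4 ± 0.466% against 13.7 ± 1.34%, SD, n = 3 each). The groups do not overlap, and WT 3 lies close to the KO samples. The median log2 fold change was -0.22 over the core genes, 64 of which were below 0, and 0.03 over all genes. It was -0.19 for the large and -0.27 for the small subunit, where 29 of 30 genes were below 0. Over 13 alternatives the core median lay between -0.32, without WT 3, and -0.17, without WT 1. Sums of markers listed for other cell types also differed between the ES groups. The 4 leukocyte markers summed to 10.2 to 12.7 TPM in KO and 16.3 to 17.8 TPM in WT. The 4 endothelial markers summed to 10.8 to 21.0 and 22.3 to 28.8 TPM, and the 6 epithelial markers to 194 to 228 and 170 to 191 TPM. Cd68 made up most of the leukocyte sum (8.81 to 11.5 and 15.1 to 16.9 TPM). Ptprc and Lyz2 were at 0, and Csf1r was higher in KO (1.21 to 1.49 and 0.964 to 1.14). Pecam1 made up most of the endothelial sum (9.27 to 19.4 and 20.5 to 26.9). Cdh5 was at 0 and Kdr was higher in KO. Cdh1 was the largest epithelial marker (103 to 130 and 93.5 to 106). These sums do not show that such cells were present. Of 8 stem cell markers, Nanog (165 to 229 TPM in KO, 313 to 344 TPM in WT), Esrrb (80.3 to 137 and 203 to 249), Klf4 (48.4 to 56.9 and 67.6 to 98.0) and Sox2 (166 to 192 and 208 to 263) were lower in every KO sample, and Pou5f1 was higher (634 to 683 and 553 to 571). The part of these markers in the result was not tested.

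Limma called 1 of 92 tested members higher (7.53% of 12860 genes were called higher) and 4 lower (4.73%), and 24 members had an unadjusted p under 0.05, as did 4383 of all 12860 genes. Rps20, a protein of the small subunit head, was listed at 1634, 1596 and 2086 TPM in KO and 2702, 2748 and 2690 TPM in WT. It fell by 0.63 on the log2 scale (SE 0.13, limma adjusted p = 0.031). Rpl10a, a stalk protein, had 608, 526 and 511 against 768, 746 and 689 TPM (-0.42, limma adjusted p = 0.043). In both genes every KO value is below every WT value. Rps27a had 830, 832 and 860 against 1287, 1160 and 1000 TPM (-0.44, limma adjusted p = 0.048), and Rpl3 had 156, 124 and 139 against 209, 227 and 172 TPM (-0.53, limma adjusted p = 0.0493). The higher member was Rpl39l, a paralog known from the testis, with 51.4, 40.1 and 39.1 against 33.9, 26.4 and 26.0 TPM (0.58, limma adjusted p = 0.0496). Its groups do not overlap, and it was listed at 0 in every md library.

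These calls lie close to the threshold and rest on the samples included. With 1 sample left out, 8 members were called without KO 1, 0 without KO 2, KO 3, WT 1 or WT 2, and 23 without WT 3 (2 higher and 21 lower). Over all genes, 3985 of 12584 were called without KO 1 and 1865 of 12645 without WT 3, where 91 and 92 members were tested. KO and WT did not overlap in 26 lower members, all of them core genes (14.5% of all genes were so), and in 5 higher members (23.8%).

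Several members had large differences in TPM that did not pass. Rpl12 had 84.7, 84.6 and 84.3 TPM in KO and 176, 213 and 90.6 TPM in WT (log2 fold change -0.82, limma adjusted p = 0.10), where WT 3 stands apart from the other WT samples. Rps24 had 6269, 6381 and 7503 against 8711, 9002 and 9026 TPM (-0.41, limma adjusted p = 0.063). Rps12 had 6038, 5099 and 5998 against 8717, 9193 and 6243 TPM (-0.48, limma adjusted p = 0.11). Against the trend Rpl9 had 92.6, 73.9 and 88.1 against 60.5, 58.0 and 72.8 TPM (0.41, limma adjusted p = 0.075), and Rpl27 had 81.3, 105 and 107.8 against 57.4, 61.0 and 90.5 TPM (0.51, limma adjusted p = 0.12). Rpl9 does not overlap between the groups and Rpl27 does.

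A difference of the KO effect between ES and md cells was called by limma in 0 of 89 members, where 0.483% of 10558 genes were higher and 0.502% lower in ES. There were 10 members at an unadjusted p under 0.05, and 2273 of all 10558 genes. Rpl9 had the lowest p, with log2 fold changes of 0.41 in ES and -0.21 in md cells and a difference of 0.61 (SE 0.15, limma adjusted p = 0.063). The next were Rps27a (-0.38, adjusted p = 0.14), Rpl27 (0.78, 0.15), Rps29 (-0.53, 0.15) and Rpl7a (0.44, 0.15). Without WT 3 of ES cells 4 of 89 members were called, and 196 of all 10481 genes. Without md line KO3, 1 of 89 members was called, and 1310 of all 10519 genes.

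**Figure D5:**
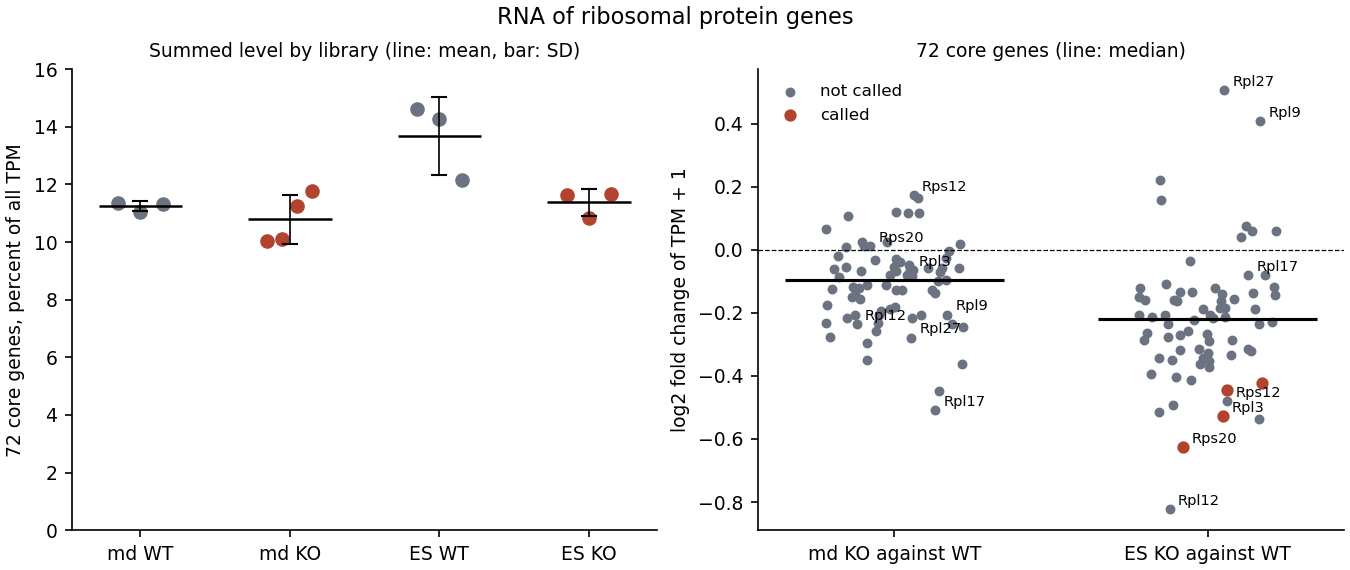
Left, TPM of the 72 core genes as a percent of all TPM in each RNA-seq library, with the mean and SD of each group, from 0. Right, log2 fold change of TPM + 1 for each core gene, KO against WT, with red for called genes and a line at the median. The medians lie at -0.10 in md and -0.22 in ES cells, and the red points are called only in ES cells.

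Levels of single members ranged widely and differed between the cell types. In WT md cells the lowest core gene was Rps2 with 24.3 TPM, the median 1264 and the highest Rpl13a with 4326. In WT ES cells the lowest was Rpl5 with 17.0 TPM, the median 1239 and the highest Rps24 with 8913. There were 4 core genes under 100 TPM in md and 7 in ES cells. Across the 72 genes the levels had a Spearman's rho of 0.74 between the cell types, whose tables were normalized separately.

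Rps2 and Rpl10, each low in 1 cell type, have many copied 31-mers. Across the 72 core genes the copied share had a Spearman's rho of -0.05 with WT md TPM and 0.055 with WT ES TPM. Rpl5, the lowest core gene in WT ES cells, had 39.6% of its exon 31-mers copied. Rps2 stood at 23.2 to 26.4 TPM in WT md cells and at 1667 to 2607 TPM in WT ES cells, and 62.7% of its exon 31-mers occur elsewhere. Rpl10 stood at 1218 to 1310 TPM in WT md cells and at 93.1, 84.4 and 330.6 TPM in WT ES cells, with 77.0% of its 31-mers copied. The copy Rpl10-ps3, all of whose 31-mers occur elsewhere, stood at 481 to 527 TPM in WT md and at 2282 to 2299 TPM in WT ES cells. Reads that fit such a pair cannot be told apart, so these levels are uncertain. Of the paralogs, Rpl10l, Rpl39l and Rps4y2 were listed at 0 in all md libraries, and their WT ES means were 17.8, 28.8 and 689 TPM. Rpl3l, the muscle paralog, was under 1 TPM in both, and Rpl36al stood at 674 ± 19.8 TPM in md and 609 ± 30.8 TPM in ES cells (SD, n = 3 each).

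Transcript shares of ribosomal protein genes did not pass in either cell type. A share is the percent of a gene's TPM in 1 transcript, and a call needed an adjusted p under 0.05 and at least 10 points. Genes with only 1 listed transcript, Rpl3 and Rps13 among them, could not be tested for shares. In md cells limma called 0 of 94 transcripts of 37 genes (0% of 18725 transcripts), with 6 at an unadjusted p under 0.05 (6.38%, against 7.80% of all transcripts). In ES cells it called 0 of 87 (0.0424% of 18872), with 10 at an unadjusted p under 0.05 (11.5%, against 12.3% of all transcripts), and 10 member transcripts differed by at least 10 points. Retained-intron transcripts made up 6.63 ± 0.331% of core TPM in the md lines and 6.35 ± 0.138% in WT, and 5.06 ± 0.196% in KO and 5.19 ± 0.282% in WT ES cells. The groups overlap in both cell types.

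The transcripts with the lowest p had shares that stood apart between groups. In ES cells the Rpl27 transcript ENSMUST00000107249 had 70.0, 77.1 and 73.3% of the gene's TPM in KO and 55.6, 54.7 and 61.9% in WT (16.1 points, limma adjusted p = 0.15), and ENSMUST00000077856 of the same gene 21.1, 15.4 and 21.0% against 34.7, 34.9 and 28.8%. The Rpl9 transcript ENSMUST00000120094 had 44.3, 45.4 and 42.5% against 29.99, 36.5 and 27.4% (12.7 points, limma adjusted p = 0.19), and ENSMUST00000057885 47.4, 43.1 and 50.0% against 59.8, 56.0 and 65.6%. These are also 2 of the genes whose TPM was higher in KO samples without passing. The Rpl5 transcript ENSMUST00000153590 had 28.7, 20.9 and 25.7% against 10.0, 9.37 and 18.4% (12.5 points, limma adjusted p = 0.25). In md cells the lowest p was that of the Rps10 transcript ENSMUST00000025052, with 85.6, 86.5, 83.6 and 83.9% in the md lines and 75.7, 79.3 and 79.6% in WT (6.73 points, limma adjusted p = 0.40). The other Rps10 transcript, ENSMUST00000114882, differed by -5.75 points (limma adjusted p = 0.53). Both tested transcripts of Rpl19 differed, by 4.99 and -4.98 points (limma adjusted p of 0.47 and 0.48), and that of Rpl27a, ENSMUST00000143107, by 6.64 points (0.54).

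Other genes of the pathway were read from lists, where the shares of all genes are 39.5% called higher and 12.4% lower in introns, with a median of 0.48, and 7.53% higher and 4.73% lower in ES RNA, with a median of 0.03. The 7 ribosomal proteins outside the symbol rule (among them Rplp0, Rpsa and Fau) were all called higher in intronic crosslinks by edgeR, with a median log2 fold change of 1.88. Of 15 tested translation factors and like genes whose mRNAs start with a pyrimidine tract, 12 were called higher and 1, Eif3h, lower (median 1.12). Of 36 tested ribosome biogenesis genes 31 were called higher (median 1.53), and of 41 mitochondrial ribosomal protein genes 19 were higher and 2, Mrps6 and Mrps28, lower (median 0.85). Among 10 tested genes that control ribosomal protein synthesis, Larp4, Mdm2, Mtor and Rps6kb2 were called higher, a share near that of all genes. In RNA, limma called none of the 7 ribosomal proteins outside the rule and none of the translation factors in either cell type. Of 39 ribosome biogenesis genes, 10 rose in gene trap ES cells (Bop1, Bysl, Emg1, Heatr1, Nhp2, Nolc1, Nop2, Polr1b, Rrp9 and Utp20) and none fell, with a median of 0.19, and in md cells none was called, with all 39 below 0 and a median of -0.25. Of 77 mitochondrial ribosomal protein genes, 6 rose and none fell in ES cells (median 0.08), which is near the share of all genes. The ES calls over all genes, 1576 in the comparison as given, depended on the samples included. They numbered 3985 without KO 1, 61 without KO 2, 49 without KO 3, 21 without WT 1, 49 without WT 2 and 1865 without WT 3.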

How the data were processed

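The iCLIP files the authors deposited hold a crosslink count for each position and strand, on mm9 by the design text. The RNA-seq tables, 1 for md and 1 for ES cells, hold TPM for each transcript as deposited. The submitters' processing notes name the builds mm9 and mm10. Not given in the sources used here: aligner, quantifier, strandedness, and whether molecular barcodes were collapsed. Of 100249 transcripts 84877 (84.7%) joined the GENCODE vM1 annotation. Of 405 member transcripts 381 were listed, and 10 members, all copies, had none.

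Gene TPM was summed over transcripts. Limma 3.58.1 (trend, 2-sided) was run on log2(TPM + 1) for genes at or above 1 TPM in 3 libraries, so folds of low genes are understated. Shares were tested where the gene had more than 1 listed transcript and reached 1 TPM throughout, and the mean share was 5 to 95%. Crosslinks on the gene's strand were tested with edgeR 4.0.16 (quasi-likelihood, filterByExpr, TMM factors from gene bodies), with DESeq2 1.42.0 as an alternative, in R 4.3.3. P-values were adjusted by Benjamini-Hochberg over all features tested, with a threshold of 0.05. Positions were read with Python 3.11.15 and pysam 0.24.0. The fits were tested on simulated data. Intervals for counting error were not formed, because barcode collapsing is not stated.

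Named genes were Rbm10, members picked by role (5S particle, regulated splice forms, Diamond-Blackfan anaemia, paralogs, Rps27a, Rps6), up to 10 called members at each end of the folds or else the 5 lowest p, the 10 with most intronic and exonic crosslinks, the 5 transcripts with the lowest p and the 5 highest and lowest TPM per cell type. A few others (Rps12 and Rps24 in ES cells, the lower gene body calls, Rps14 and Rps16, Rpl7 and Rpl36) are named as exceptions or examples, and so were chosen after their values were seen. The members, the lists and the tests were chosen with earlier results of these data known. Sequences are from the mm9 genome, and chromosome 18 was left out of their choice. Sample groups and replicate numbers came from the titles. Whether numbers pair the RNA-seq samples was checked by the correlation of deviations of same-numbered samples, which ran from -0.13 to 0.16. For iCLIP the design text gives each RBM10 replicate its own IgG library, and the correlations were -0.02 to 0.02. Pairs given by the design thus had correlations near 0 too, so the check cannot decide whether the RNA-seq samples are paired. Some genes that the naming rule covers are not reported here.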

Additional observations from a re-analysis of the deposited data

Results flagged for a closer look

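In 130 groups of 4 libraries, the intronic crosslinks of named genes scaled to the library total (CPM), their TPM in the md KO lines, and the sums over core genes were checked for 1 library far from the other 3, by the gap to the nearest library over the whole range (Dixon's test at 95%). Chance gives about 1 group in 20, and 4 groups (3.08%) passed, all of them intronic crosslinks. Rpl14, which had a log2 fold change of 1.11, stood at 39.0 CPM in its highest RBM10 library against 24.5 in the next. Rpl7a stood at 18.99 in its lowest IgG library against 29.1 in the next. Rpl7l1 stood at 37.98 in its highest IgG library against 13.9986 in the next. Rps3a stood at 0.0 in its lowest IgG library against 41.5 in the next. The flagged IgG values are all from IgG 4, a shallow library of 157986 crosslinks, so they rest on few crosslinks.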

How the results depend on the processing

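Low counts left 19 members to test in exons, and the shallow IgG libraries hold 103017 and 157986 crosslinks. In md RNA no member was called under any setting run, and no transcript share was called in either cell type under any. Members called in ES RNA numbered 5, and 3 with a pseudocount of 0.1, 3 with limma without a trend, 0 with no filter on low values, and 0 to 23 with 1 sample left out. For the difference of the KO effect this range was 0 to 4, and for crosslinks over the gene body 23 to 47. For introns it was 43 to 58 and for exons 0 to 13. Over all genes these refits called 6 to 1310, 1825 to 4038, 3018 to 4699 and 3 to 2338, in that order. With exons of all annotated transcripts, 32 members were called in introns and 24 in exons. Of the named genes called, 15 of 32 were called under every setting in introns, 15 of 28 over the gene body, 0 of 8 in exons and 0 of 5 in ES RNA.

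With small RNA genes counted as intron, the intronic log2 fold change turned negative in Rpl4 (-0.66), Rpl5 (-0.59), Rpl7a (-0.85), Rpl13a (-0.57), Rpl30 (-0.24), Rpl39 (-1.01), Rps2 (-0.055), Rps3 (-1.06), Rps3a (-0.25) and Rps13 (-1.38), all of which host snoRNAs. With exons of all transcripts it did so in Rps6 (-0.25) and Rps18 (-0.31). Values that were not called changed sign in 32 of 444 refits in md RNA, 9 of 325 in ES RNA and 4 of 79 in introns.

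With the replicate number as a block, 46 members were called in introns (all higher) and 37 over the gene body (24 higher and 13 lower). In exons 9 were called (3 higher and 6 lower), in ES RNA 1 and in md RNA 0. No transcript share was called in either cell type. Over all genes, calls under the block numbered 3479 in introns, 2628 over the gene body, 1556 in exons and 422 in ES RNA. Without the block they numbered 4187, 3411, 1332 and 1576. The genes tested were 8064, 9255, 4420 and 12860 in both fits. Among named genes the block ended the intronic calls of Rpl14, Rpl31, Rpl38 and Rps19, the gene body call of Rps19, and the ES RNA calls of Rpl3, Rpl10a, Rps20 and Rps27a. Whether RNA-seq samples with the same number are paired is not known, and the check of their deviations cannot decide it.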
